A study of Mus musculus with 6 samples.

Results

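The carriers that move lactate and glucose across the outer eye wall were described in 6 arrays, through 9 genes chosen by name. These were the monocarboxylate carriers Slc16a1, Slc16a3, Slc16a7 and Slc16a8, their partner glycoproteins Bsg and Emb, and the glucose carriers Slc2a1, Slc2a3 and Slc2a4. All 9 were measured, among 22180 genes that the platform annotation names with 1 symbol. They were covered by 11 probe sets, and the probe set of highest mean over all arrays was kept for each gene. A further probe set that carries the Slc16a3 symbol together with a second gene was not used.

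Mice were 12 months old, and total RNA was taken from the outer eye wall: the retinal pigment epithelium (RPE) together with choroid and sclera. The first group was 3 samples of mice heterozygous for the 5XFAD transgenes, which encode human amyloid precursor protein and presenilin with familial Alzheimer's disease mutations under the neuronal Thy1 promoter. The second group was 3 samples of non-transgenic wild-type littermates. No treatment was given to either group, and the labels do not state sex, pooling or whether each sample was a separate animal, so p-values measure only the spread between these samples. The comparison asks how transcripts of this tissue differ by genotype at that age, in a series whose title concerns a pathology like dry macular degeneration.

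The RPE lies between the choroidal blood supply and the photoreceptors. Glucose passes from the choroid through the RPE to the photoreceptors, which turn much of it into lactate, and lactate returns through the RPE to the blood. In the RPE the carrier MCT1 (Slc16a1) sits on the apical face towards the photoreceptors, MCT3 (Slc16a8) sits on the basal face towards the choroid, and GLUT1 (Slc2a1) sits on both faces. These monocarboxylate carriers need basigin (Bsg) to reach the membrane, and embigin (Emb) is its relative and the usual partner of MCT2 (Slc16a7).

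The apical and the basal lactate carriers of the RPE had the lowest 5XFAD signal relative to wild type of the 9 genes, and the remaining 7 overlapped between groups. Slc16a1 was at 0.645 and Slc16a8 at 0.657 of their wild-type signal, whereas Slc2a1 was at 1.01 and Bsg at 0.893. In limma 0 of the 9 genes passed a Benjamini-Hochberg adjusted p of 0.05, which 0.0225% of all genes passed. At an unadjusted p under 0.05, 2 of the 9 were called, both lower in 5XFAD, where 3.39% of all genes were called lower and 2.89% higher. The groups did not overlap in those same 2 genes, with all 5XFAD arrays below all wild-type arrays, which held for 6.62% of all genes. The median log2 difference of the 9 genes was -0.01, equal at this rounding to the median of all genes (-0.01).

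Slc16a1 signal in wild type was 11.03, 11.08 and 11.16 (log2 intensity, replicates 1 to 3). In 5XFAD it was 10.39, 10.33 and 10.65. Every 5XFAD array lay below every wild-type array, with a gap of 0.38 between the nearest pair, and 5XFAD replicate 3 was the closest to wild type. The means were 10.46 ± 0.17 and 11.09 ± 0.06 (SD, n = 3 per group, as for all means here), a log2 difference of -0.63 ± 0.11 (± SE, 95% interval -0.89 to -0.38). This difference did not pass the threshold over all genes (limma, unadjusted p = 0.000327, Benjamini-Hochberg adjusted p = 0.17). It was the 43rd smallest unadjusted p among 22180 genes, and 44 genes had a more negative difference.

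Slc16a8 signal in wild type was 9.18, 9.17 and 9.16, a spread of 0.01 (SD). In 5XFAD it was 8.42, 8.65 and 8.62. The wild-type arrays were nearly level, all 5XFAD arrays lay at least 0.51 below them, and 5XFAD replicate 1 was lowest. The means were 8.56 ± 0.12 and 9.17 ± 0.01, a log2 difference of -0.61 ± 0.10 (± SE, 95% interval -0.84 to -0.38). This also did not pass over all genes (limma, unadjusted p = 0.000197, Benjamini-Hochberg adjusted p = 0.15), although only 28 genes had a smaller unadjusted p.

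The start regions of both lower lactate carriers are shown because these genes were low together, and that of Slc2a1 because its signal overlapped between groups. RefSeq windows of 250 bases before to 50 bases after the start site (GRCm38.p6) were listed for 5 of the 9 genes. The windows lie at chr3:104638414-104638713 on the + strand for Slc16a1, chr15:79254699-79254998 on the - strand for Slc16a8 and chr4:119108495-119108794 on the + strand for Slc2a1. Each is written 5′ to 3′ along its gene's strand. Capitals mark matches on either strand to an E-box (CACGTG), the core of a hypoxia response element (ACGTG, contained in the E-box), a core site of OTX2 and CRX (TAATCC) or a GC box (GGGCGG).
Slc16a1: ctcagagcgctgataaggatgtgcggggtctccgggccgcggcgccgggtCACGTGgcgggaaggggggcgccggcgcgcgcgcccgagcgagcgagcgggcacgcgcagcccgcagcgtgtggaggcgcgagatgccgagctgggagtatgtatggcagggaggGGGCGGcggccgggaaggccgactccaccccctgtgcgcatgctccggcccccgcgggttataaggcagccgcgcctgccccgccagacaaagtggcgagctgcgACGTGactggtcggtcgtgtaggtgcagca
Slc16a8: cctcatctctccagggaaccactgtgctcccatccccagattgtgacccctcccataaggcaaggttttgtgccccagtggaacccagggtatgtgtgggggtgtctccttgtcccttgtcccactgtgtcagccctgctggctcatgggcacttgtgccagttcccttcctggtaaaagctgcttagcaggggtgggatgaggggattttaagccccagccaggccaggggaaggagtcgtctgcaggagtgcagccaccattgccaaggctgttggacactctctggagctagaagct
Slc2a1: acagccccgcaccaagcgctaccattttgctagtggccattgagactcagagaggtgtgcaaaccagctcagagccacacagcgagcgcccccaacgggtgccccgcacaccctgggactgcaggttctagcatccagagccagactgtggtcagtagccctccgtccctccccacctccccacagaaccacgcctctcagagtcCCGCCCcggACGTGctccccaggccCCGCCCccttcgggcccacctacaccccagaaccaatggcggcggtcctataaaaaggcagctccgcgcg

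The start regions of the carriers with lower signal differed in base composition. The Slc16a1 window held 73.7% GC and 42 CpG dinucleotides, whereas the Slc16a8 window held 58.3% GC and 1 CpG, against medians of 52.7% and 7.0 over 32851 such windows. In Slc16a1 an E-box began 200 bases before the start site, a GC box 85 before it, and a further ACGTG 20 bases after it. In Slc16a8 none of the 4 motifs occurred. In Slc2a1 a pair of GC boxes and an ACGTG 36 bases before the start were found. Windows not shown are those of Slc16a3 and Emb, whose signals also overlapped between groups. The Slc16a3 window, close to that of Slc16a1 in composition, held 73.3% GC, 36 CpG, 2 ACGTG and 1 GC box. The Emb window held 57.7% GC, 14 CpG and 1 GC box. Over all windows 7.15% held CACGTG, 19.6% ACGTG, 7.06% TAATCC and 35.7% GGGCGG. The matches are given as a description only.

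**Figure D1:**
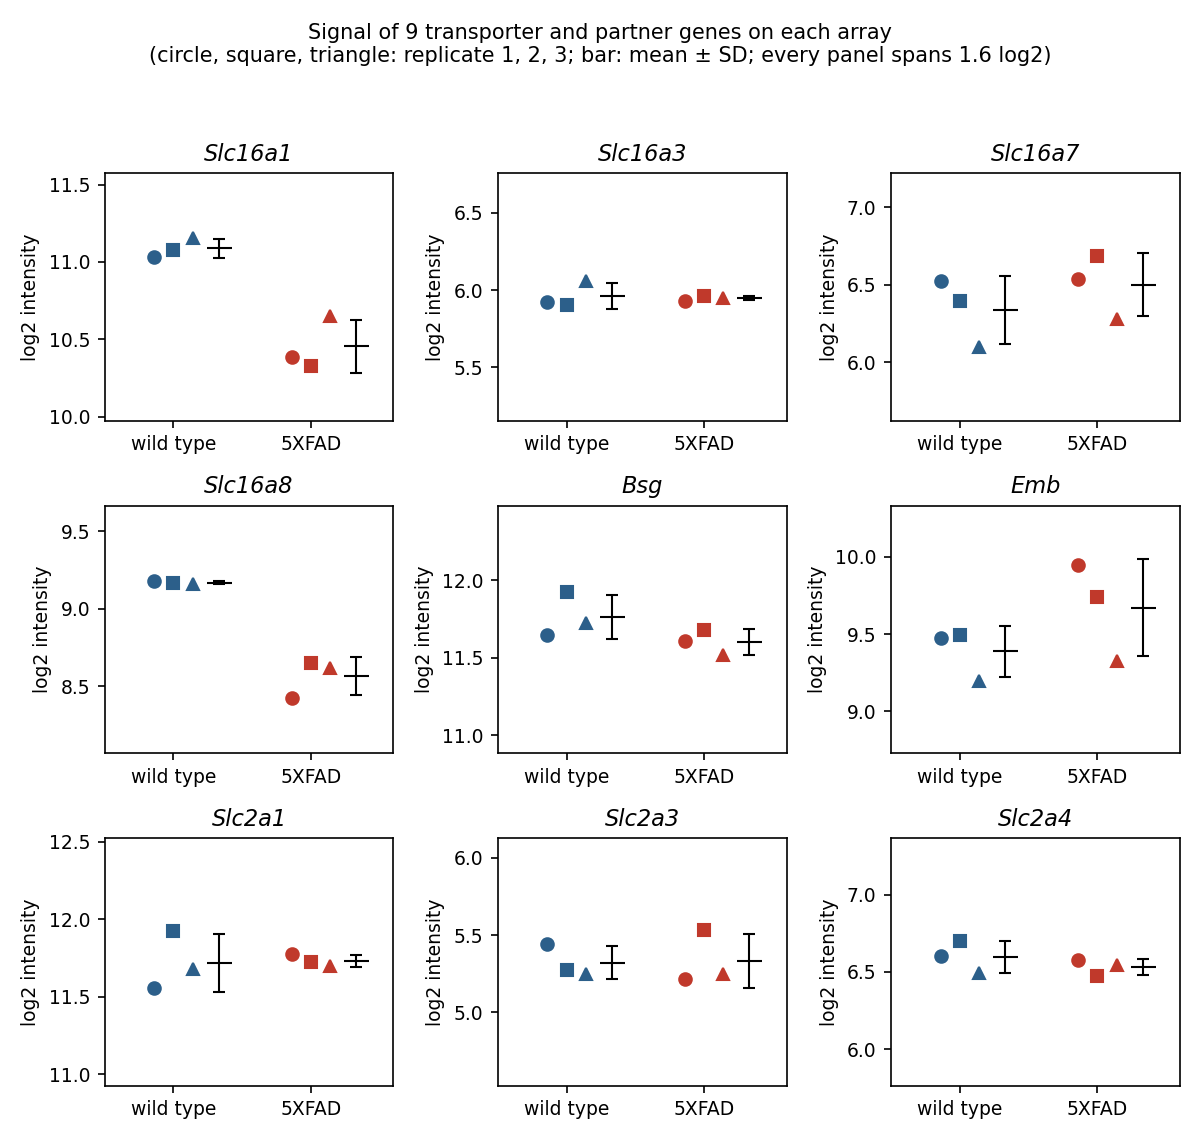
Log2 intensity (vertical axis) of the 9 genes on each array, with wild type in blue, 5XFAD in red, a marker shape for each replicate number and a bar for mean ± SD (n = 3). Slc16a1 and Slc16a8 are the panels in which all 5XFAD arrays lie below all wild-type arrays, with gaps of 0.38 and 0.51, and the other 7 panels overlap.

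The partner Bsg, also an inducer of matrix metalloproteases, was closer to wild type. Its wild-type signal was 11.65, 11.92 and 11.72, and its 5XFAD signal was 11.61, 11.68 and 11.52. The groups overlapped, because wild type replicate 1 lay below 5XFAD replicate 2. The log2 difference was -0.16 ± 0.11 (95% interval -0.41 to 0.09), so that a ratio between 0.752 and 1.06 lies within the interval (limma, Benjamini-Hochberg adjusted p = 0.92). Without wild type replicate 2 it was -0.08. Slc16a1 was lower relative to Bsg on the same array by 0.47 (log2) in 5XFAD than in wild type, and Slc16a8 was lower relative to Bsg by 0.44, with all arrays apart in each case. For Slc16a1 the nearest arrays were close, at -0.86 in 5XFAD replicate 3 and -0.84 in wild type replicate 2. Both comparisons gave an exact two-sided permutation p of 0.1, the smallest that 3 against 3 arrays allow, and 0.18 after adjustment over the 9 pairs compared.

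Emb, the other partner glycoprotein, was at 9.47, 9.49 and 9.20 in wild type and at 9.94, 9.74 and 9.33 in 5XFAD. The 5XFAD arrays were spread over the widest range of any of the 9 genes, and 5XFAD replicate 3 lay among the wild-type arrays. The log2 difference was 0.28 ± 0.16 (95% interval -0.08 to 0.65) and did not pass (limma, Benjamini-Hochberg adjusted p = 0.89). A second, dimmer probe set of Emb gave the opposite sign, -0.23 ± 0.16 (limma, Benjamini-Hochberg adjusted p = 0.93 over all single-symbol probe sets), so the direction for Emb depended on the probe set, and the mean of both gave 0.0265. Without 5XFAD replicate 3 the difference of the kept probe set was 0.45, without 5XFAD replicate 1 it was 0.15, and without wild type replicate 3 it was 0.19. Relative to Bsg on the same array, Emb was higher in 5XFAD by 0.45 with overlapping arrays (exact two-sided permutation p = 0.2, adjusted 0.3). Nptn, the remaining glycoprotein of the basigin family, differed by -0.04 ± 0.10 (limma, Benjamini-Hochberg adjusted p = 0.97).

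Slc16a3 and Slc16a7, carriers of other tissues, overlapped between groups. Slc16a3 (MCT4), which exports lactate from glycolytic cells such as fast muscle, was at 5.92, 5.91 and 6.06 in wild type and at 5.93, 5.96 and 5.95 in 5XFAD. Its log2 difference of -0.01 ± 0.10 had a 95% interval of -0.23 to 0.20 (limma, Benjamini-Hochberg adjusted p = 0.99). The RefSeq table lists Mct3 as an older name of Slc16a3 as well as of Slc16a8, so that these genes can be confused by protein name. Slc16a7 (MCT2), a high-affinity carrier, was at 6.53, 6.40 and 6.10 in wild type and at 6.54, 6.69 and 6.28 in 5XFAD, which overlapped. Its log2 difference was 0.16 ± 0.15 (95% interval -0.17 to 0.49; limma, Benjamini-Hochberg adjusted p = 0.93).

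Set against Slc16a1 on the same array, Slc16a3 and Slc16a7 were higher in 5XFAD by 0.62 and 0.80 (log2), with all arrays apart (exact two-sided permutation p = 0.1 each, adjusted 0.18). Slc16a1 itself differed by -0.63, so the value of Slc16a3 mainly restates the lower Slc16a1. The difference between the changes of the basal Slc16a8 and the apical Slc16a1 was 0.03, with overlapping arrays (exact two-sided permutation p = 0.9, adjusted 1). With 3 arrays a group, unequal change of those 2 genes was not detectable, which does not show that they changed alike.

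The 3 glucose carriers among the 9 genes overlapped between groups, with ratios to wild type near 1. Slc2a1 (GLUT1), the main glucose carrier of the RPE, was at 11.55, 11.92 and 11.68 in wild type and at 11.77, 11.72 and 11.70 in 5XFAD. All 5XFAD arrays lay inside the wild-type range. The log2 difference of 0.01 ± 0.12 had a 95% interval of -0.25 to 0.27, a ratio between 0.841 and 1.21 (limma, Benjamini-Hochberg adjusted p = 0.99), and a second, dimmer probe set gave -0.04 ± 0.13. Its sign turned with a repeated quantile normalization (-0.0025). Relative to Slc16a1 on the same array, Slc2a1 was higher in 5XFAD by 0.65, with all arrays apart (exact two-sided permutation p = 0.1, adjusted 0.18). That value mainly restates the lower Slc16a1, which differed by -0.63.

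Slc2a3 (GLUT3), the neuronal glucose carrier, was at 5.44, 5.27 and 5.25 in wild type and at 5.21, 5.53 and 5.25 in 5XFAD, a log2 difference of 0.01 ± 0.12 (95% interval -0.26 to 0.28; limma, Benjamini-Hochberg adjusted p = 1.00). The highest and the lowest of the 6 values were both 5XFAD arrays. Slc2a4 (GLUT4), the insulin-responsive carrier of muscle and fat, was at 6.60, 6.70 and 6.49 in wild type and at 6.58, 6.48 and 6.54 in 5XFAD. Its log2 difference was -0.07 ± 0.10 (95% interval -0.29 to 0.16; limma, Benjamini-Hochberg adjusted p = 0.96). The changes of Slc2a3 and Slc2a4 relative to Slc2a1 were -0.0033 and -0.08 with overlapping arrays (exact two-sided permutation p = 1 and 0.6). Slc16a3 and Slc2a3 had means below the median of all genes, where background compresses differences.

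The tissue label was checked with marker lists. Rpe65, the isomerase that defines the RPE, lay between 12.23 and 12.78 (log2 intensity) on all 6 arrays. Of 24 RPE markers measured, none of them one of the 9 genes, 19 were below wild type in their mean, and the median difference was -0.35 against -0.01 for all genes. The per-array mean of the RPE markers was 10.32 to 10.48 in 5XFAD and 10.60 to 10.77 in wild type, without overlap. Over all 22180 genes, 11702 were lower and 10478 higher in their mean. In limma 0 of the RPE markers passed the adjusted threshold, while at an unadjusted p under 0.05 there were 13 lower and 1 higher. At that p 3.39% of all genes were lower and 2.89% higher. The markers with a mean above wild type were Trpm1 (0.62 ± 0.21, without overlap), Best1 (0.26), Pmel (0.24), Dct (0.06) and Tyrp1 (0.05). In bulk tissue, fewer RPE cells and less RNA per RPE cell cannot be told apart.

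The lactate carriers lay towards the low end of the RPE markers. Only 2 of the 24 had a more negative log2 difference than Slc16a1, namely Itgb8 (-0.68 ± 0.16), an integrin gene, and Rrh (-0.64 ± 0.11), an RPE opsin. Lrat (-0.62 ± 0.11), which esterifies retinol, also had a more negative difference than Slc16a8. Relative to the mean of the RPE markers on the same array, Slc16a1 was lower in 5XFAD by 0.36 (log2) and Slc16a8 by 0.33, and each had all 5XFAD arrays below all wild-type arrays. Against the median of the RPE markers, or their mean without the melanin genes, Slc16a8 was lower by 0.18 or 0.22 and its arrays then overlapped (exact two-sided permutation p = 0.3 each). Slc16a1 was then lower by 0.21 or 0.25, with all arrays still apart. The 5 markers left out under the label of melanin genes were Trpm1, Pmel, Dct and Tyrp1, which were higher in 5XFAD, and Mitf, which was lower (-0.19). Of the markers above wild type only Best1 was then kept, so this reference is lower in 5XFAD by its choice. Relative to the mean of all 24 RPE markers, Slc2a1 was higher by 0.29 with all arrays apart, Emb by 0.55 and Bsg by 0.11 with overlapping arrays. Slc16a3, Slc16a7, Slc2a3 and Slc2a4 were higher relative to the RPE markers by 0.26, 0.43, 0.28 and 0.21. The RPE marker mean itself differed by -0.27, so a gene with no difference of its own comes out higher by that amount. The values of Slc16a3, Slc2a1, Slc2a3 and Slc2a4 mainly restate that lower mean. The exact two-sided permutation p was 0.1 for Slc16a1, Slc16a8, Slc16a3, Slc2a1 and Slc2a4, and 0.18 after adjustment over the 9 genes, while it ran from 0.2 to 0.4 for the others. With the RPE marker mean as a covariate, the log2 difference of Slc16a1 was -0.37 ± 0.25 and that of Slc16a8 was -0.62 ± 0.24 (limma, unadjusted p = 0.165 and 0.0292, Benjamini-Hochberg adjusted p = 0.87 and 0.75). That covariate is itself apart between the groups.

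**Figure D2:**
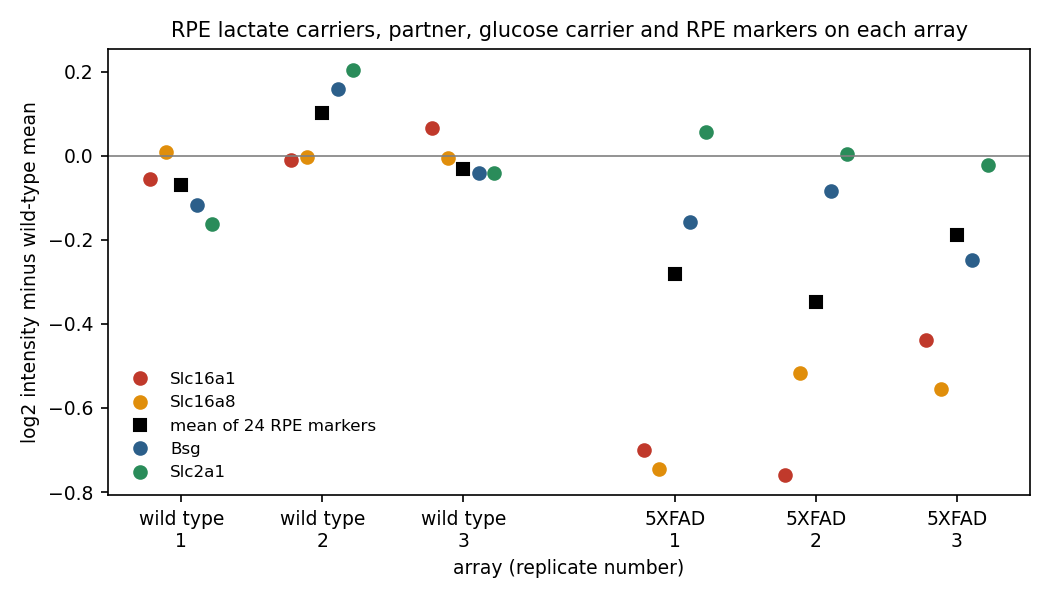
Log2 intensity minus the wild-type mean (vertical axis) of Slc16a1, Slc16a8, Bsg, Slc2a1 and the mean of 24 RPE markers (squares) on each of the 6 arrays (horizontal axis). On every 5XFAD array Slc16a1 and Slc16a8, between -0.76 and -0.44, lie below the RPE markers, between -0.35 and -0.19, and Slc2a1 lies near 0.

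Marker lists of other cells that the dissection can hold also differed between arrays, and their part in the carrier values was not tested. For surface epithelium, 10 of 14 measured markers were higher in 5XFAD, as were 10478 of all 22180 genes. Its list means were 6.57 to 7.15 in 5XFAD against 5.86 to 5.90 in wild type. Of the surface epithelium markers, 4 keratin genes passed the adjusted threshold (limma), which were 4 of the 5 genes that passed among all genes. They were Krt4, Krt6a, Krt13 and Krt15, named after their values were seen, at ratios of 9.26, 3.63, 2.92 and 11.7 to wild type. The 4 lower markers of that list were Dsp (-0.185), Aldh3a1 (-0.066), Perp (-0.015) and Klf5 (-0.005, log2), all with overlap. Krt12 (0.40) and Trp63 (0.09) were higher with overlap, so the list did not change as a whole. In the other marker lists 0 passed. For glia and neurons of the neural retina 10 of 12 were higher, with list means of 6.72 to 7.06 against 6.43 to 6.53. For photoreceptors 13 of 16 were lower, with list means of 5.39 to 6.06 against 5.53 to 6.14. For skeletal muscle 18 of 23 were higher, with overlapping list means of 6.18 to 7.25 against 5.74 to 6.87. Slc2a4 lay between 6.48 and 6.70 on all 6 arrays, and its relation to muscle content was not tested. The 14 endothelial markers (6 higher, 8.49 to 8.74 against 8.67 to 8.70), 9 adipocyte markers (5 higher, 5.91 to 6.01 against 5.83 to 5.94), 12 fibroblast markers (8 higher, 9.31 to 9.65 against 9.32 to 9.54) and 13 macrophage markers (11 higher, 8.79 to 9.16 against 8.81 to 8.88) had overlapping list means. Of 9 red blood cell markers 2 were measured, at list means of 4.89 to 5.08 against 4.98 to 5.29. With the skeletal muscle marker mean as a covariate, the difference was -0.61 ± 0.14 for Slc16a1 and -0.56 ± 0.12 for Slc16a8 (limma, Benjamini-Hochberg adjusted p = 0.48 and 0.44). That fit is a description and does not test a part of muscle in these values.

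Other carriers of the same families gave further lower signals. Of the other 9 SLC16 carriers measured, limma put 2 lower and 1 higher at an unadjusted p under 0.05, and 0 passed the adjusted threshold. At that unadjusted p 3.39% of all genes were lower and 2.89% higher. The median difference of the other SLC16 carriers was -0.02. Slc16a6 was at 7.676, 8.036 and 7.760 in wild type and at 7.311, 7.396 and 7.458 in 5XFAD, a log2 difference of -0.44 ± 0.12 without overlap (limma, Benjamini-Hochberg adjusted p = 0.51). Slc16a9 was at 8.89, 9.24 and 9.17 in wild type and at 8.75, 8.70 and 8.59 in 5XFAD, a log2 difference of -0.43 ± 0.12 without overlap (limma, adjusted p = 0.52). With the RPE marker mean as a covariate these differences were -0.06 and -0.27.

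Slc16a12, a creatine carrier, went the other way. Its wild-type signal was 4.59, 5.77 and 4.82 and its 5XFAD signal 5.76, 5.81 and 5.72, so that wild type replicate 2 lay among the 5XFAD arrays. The log2 difference was 0.71 ± 0.26 (limma, Benjamini-Hochberg adjusted p = 0.70). With the RPE marker mean as a covariate it was 1.70 (limma, adjusted p = 0.63), and without wild type replicate 1 it was 0.47. Without wild type replicate 2 it was 1.06, and it then passed (limma, Benjamini-Hochberg adjusted p = 0.028), while over 12 alternatives chosen after the values were seen the adjusted p ran from 0.028 to 0.97. Slc16a10, an aromatic amino acid carrier, differed by 0.22 ± 0.13 with overlap (limma, adjusted p = 0.88). Of the 4 sodium-coupled carriers, Slc5a8, a carrier of monocarboxylates, was higher by 0.30 ± 0.14 with all 5XFAD arrays above all wild-type arrays, which held for 4.72% of all genes (limma, adjusted p = 0.81). Slc5a8 was dim, at percentile 22.2 of all genes in mean signal, and its difference was -0.049 with the RPE marker mean as a covariate. Slc5a2, Slc5a1 and Slc5a12 differed by 0.03, 0.02 and -0.02.

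Among the other 9 SLC2 carriers, Slc2a12 (GLUT12) had the most negative difference. Its signal was 7.81, 7.69 and 7.59 in wild type and 7.13, 7.05 and 6.83 in 5XFAD, without overlap. The log2 difference of -0.69 ± 0.12 did not pass (limma, unadjusted p = 0.00019, Benjamini-Hochberg adjusted p = 0.15), and it was -0.92 with the RPE marker mean as a covariate. Slc2a12 was the single gene of that list under an unadjusted p of 0.05, against 6.28% of all genes, and the list median was -0.08. Slc2a7, dim at percentile 27.1 of all genes, differed by -0.18 ± 0.10 with all 5XFAD arrays below all wild-type arrays, which held for 6.62% of all genes. Slc2a6 and Slc2a5, a fructose carrier, differed by 0.13 and -0.09 with overlap.

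**Figure D3:**
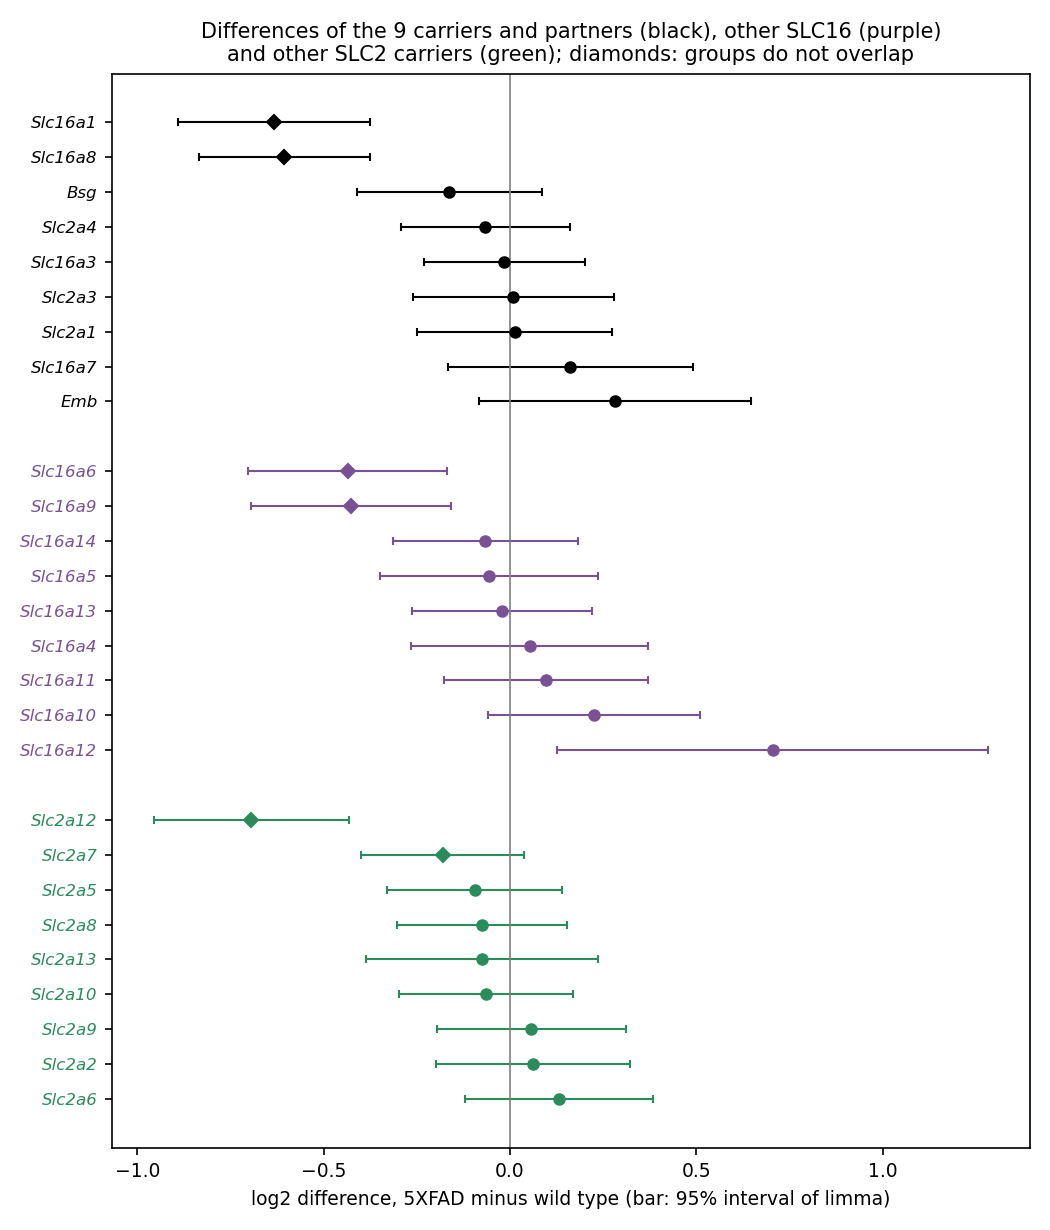
Log2 difference between 5XFAD and wild type (horizontal axis, bars for the 95% interval of limma, n = 3 per group) for the 9 genes in black, other SLC16 carriers in purple and other SLC2 carriers in green. Slc16a1, Slc16a8, Slc16a6, Slc16a9 and Slc2a12, between -0.69 and -0.43, have intervals below 0 and groups that do not overlap (diamonds), whereas Slc2a1 is centred at 0.01.

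The enzymes that make and use lactate had median differences close to that of all genes. Of 17 glycolytic genes measured, 12 had a positive difference, 1 was higher and 0 were lower at an unadjusted p under 0.05, and 0 passed in limma. Their median difference was 0.04. Of all 22180 genes, 10478 had a positive difference, and 2.89% were higher and 3.39% lower at that unadjusted p. Pfkm, the muscle phosphofructokinase, was higher by 0.38 ± 0.13 without overlap, on arrays where the muscle marker mean was also higher on average. With that mean as a covariate the Pfkm difference was 0.30. Pfkp, its platelet form, differed by 0.28 ± 0.13 and the muscle enolase gene Eno3 by 0.54 ± 0.27. With the muscle covariate the Eno3 difference was 0.17, and without 5XFAD replicate 1 or 3 it was 0.25 or 0.85. Aldoc, the aldolase of brain, was at 8.76, 9.84 and 8.36 in wild type and at 9.69, 9.81 and 9.47 in 5XFAD. In Aldoc, as in Slc16a12, wild type replicate 2 lay apart from the other wild-type arrays. The Aldoc difference was 0.67 ± 0.31, and 1.097 without that array (limma, Benjamini-Hochberg adjusted p = 0.81 and 0.070), and it passed under none of the 12 alternatives (0.070 to 0.99).

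Lactate dehydrogenases interconvert lactate and pyruvate. Ldha, the form that favours lactate, was at 6.10, 5.95 and 6.13 in wild type and at 6.32, 6.32 and 6.02 in 5XFAD, which overlapped. Its log2 difference was 0.16 ± 0.12, and that of Ldhb, the form of oxidative tissue, was -0.06 ± 0.12. The testis form Ldhc and the D-lactate enzyme Ldhd differed by -0.17 and 0.08. None of the 4 reached an unadjusted p under 0.05, and 0 passed in limma, where the lowest Benjamini-Hochberg adjusted p was 0.92.

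Genes of pyruvate entry to mitochondria gave 10 positive differences of 12 measured, with a median of 0.07 and 0 under an unadjusted p of 0.05 in limma. Of all 22180 genes, 10478 had a positive difference and 6.28% were under that p. The kinases Pdk1 and Pdk2, which inhibit pyruvate dehydrogenase, differed by 0.35 ± 0.16 and 0.33 ± 0.16, and Pdhx, a dehydrogenase subunit, and Pdp2, a phosphatase, by 0.21 and 0.10. In the glycogen and gluconeogenesis list, 2 of 15 measured were lower at an unadjusted p under 0.05, as were 3.39% of all genes, and 0 passed in limma. These were the glycogen synthase gene Gys2 (-0.33 ± 0.13) and the fructose bisphosphatase gene Fbp2 (-0.30 ± 0.12), dim at percentiles 23.7 and 36.4 of all genes. Fbp1, dim at percentile 25.9, differed by -0.25 ± 0.19 and the glycogen phosphorylase gene Pygb by 0.20 ± 0.11. The median of that list was 0.04.

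Among 17 genes that traffic or regulate these carriers, 1 was lower at an unadjusted p under 0.05, as were 3.39% of all genes, and 0 passed in limma. This was Tbc1d1 (-0.37 ± 0.14; Benjamini-Hochberg adjusted p = 0.73), a Rab regulator of GLUT4 storage, and its difference turned to 0.11 with the RPE marker mean as a covariate. Hif1a, the hypoxia factor that induces glycolytic genes, differed by 0.21 ± 0.12, Irs2, an insulin receptor substrate, by -0.18 ± 0.11 and Stxbp3, a vesicle fusion regulator, by -0.16 ± 0.11. The list median was 0.02.

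**Figure D4:**
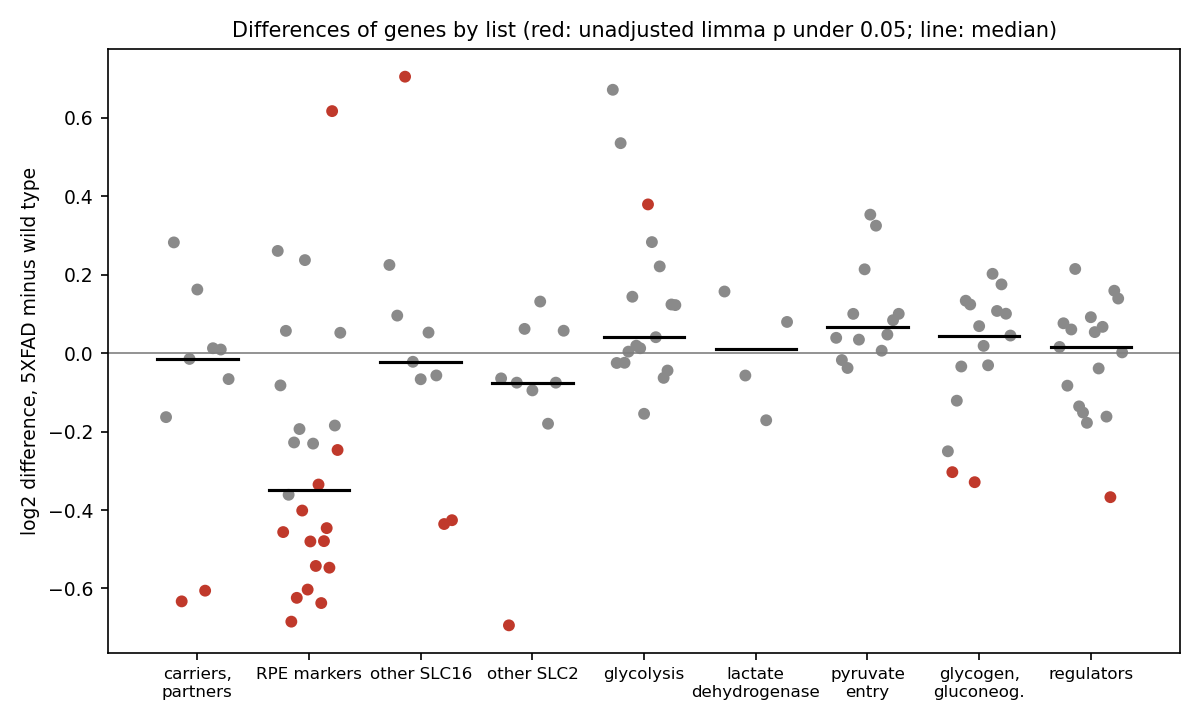
Log2 difference between 5XFAD and wild type (vertical axis) of every measured gene in 9 lists (horizontal axis), with red points for an unadjusted limma p under 0.05 and a line at each list's median. The 9 carriers and partners hold 2 red points near -0.6 and otherwise lie around 0, the RPE markers have a median of -0.35, and the enzyme lists have medians between 0.01 and 0.07.

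The genes whose profile over the 6 arrays was most like that of the lactate carriers were sought among the 11090 genes above the median signal. Likeness was the root mean square difference between profiles, each centred on its own mean, and the groups are part of each profile. The profile nearest to Slc16a1 was that of Rdh10, the retinol dehydrogenase of the RPE (0.07 log2), followed by Abhd2, a hydrolase (0.07), and Pon1, a paraoxonase (0.08). Nearest to Slc16a8 were Mt3, a metallothionein (0.05), Fmo2, a flavin monooxygenase (0.06), and again Rdh10 (0.07). Rdh10 was at 11.97, 11.96 and 11.95 in wild type and at 11.31, 11.30 and 11.46 in 5XFAD. The log2 differences were -0.60 for Rdh10, -0.54 for Abhd2, -0.61 for Pon1, -0.62 for Mt3 and -0.52 for Fmo2, and none passed (limma, lowest Benjamini-Hochberg adjusted p = 0.13).

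The profiles nearest to the other carriers belonged to genes with overlapping groups, except for Lrrc1, whose highest 5XFAD array was below its lowest wild-type array. They were Slc25a44, Lrrc1 and Ccdc97 for Bsg (0.02 to 0.03 log2), Alg2, Zfp768 and Nelfa for Slc2a1 (0.02 to 0.03) and Cdkn1a, Me2 and Gstm2 for Emb (0.05 to 0.07). For Slc16a7 they were Lin37, Dnajc4 and Idh1 (0.03 to 0.04), and for Slc2a4 Trp53bp2, Mapk14 and Cdyl2 (0.02).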

How the data were processed

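Biotin-labelled cDNA of 6 samples was hybridised to Affymetrix arrays, 1 per sample. The deposited values are log2 intensities per probe set, made by the authors with RMA in Affymetrix Expression Console 1.1 (submitters' processing notes), a method that subtracts background, equalises array distributions and combines probes. Build and detection calls were not given in the sources used, and per-array medians lay between 5.59 and 5.71.

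Of 33793 probe sets, 23521 had 1 symbol in the platform annotation, 1814 several and 8458 none. Groups were compared over 22180 genes by the moderated two-sided test of limma 3.58.1 (R 4.3.3; degrees of freedom were 4 residual and 5.23 prior) and Benjamini-Hochberg adjustment. Steps were tested on simulated data. Changes relative to another gene or to the RPE markers on the same array were tested by exact permutation over arrays.

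The genes and lists were chosen with earlier results of these data known. Named are the 9 genes, up to 4 genes of smallest p per pathway list, 3 genes of nearest profile for each of the 9 above the median signal, and, after their values were seen, Rpe65, Itgb8, Rrh, Lrat and 4 keratin genes. Also named after their values were seen were Trpm1, Best1, Pmel, Dct, Tyrp1, Mitf, Dsp, Aldh3a1, Perp, Klf5, Krt12 and Trp63. Listed genes without a probe set of 1 symbol were not analysed here. Deviations of same-numbered arrays of the 2 groups had correlations of -0.06, -0.05 and 0.13.

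Alternatives were filters on the dimmest 30% or 50% of genes, other scalings and priors, array weights, other probe set rules, covariates, the replicate block and each array left out.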

Additional observations from a re-analysis of the deposited data

How the results depend on the processing

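The differences of Slc16a1 (-0.73 to -0.37), Slc16a8 (-0.65 to -0.54), Bsg (-0.22 to -0.05) and Emb (0.0265 to 0.45) kept their sign and stayed short of the adjusted threshold under all 17 alternatives, read on the brightest probe set or the mean of a gene's probe sets. Tested on its own, the second Emb probe set turned to -0.23 and the second Slc2a1 probe set to -0.04. The adjusted p (limma, Benjamini-Hochberg) ran from 0.11 to 0.87 for Slc16a1 and from 0.085 to 0.75 for Slc16a8. Relative to the RPE markers the 9 genes kept their sign under 11 alternatives, Slc16a1 from -0.42 to -0.21 and Slc16a8 from -0.41 to -0.18, where the arrays of Slc16a8 overlapped. With the RPE marker covariate Bsg was -0.05, Emb 0.0358 and Pfkm 0.15. The cause of the turns below was not tested.

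The count of genes passing in limma was 8 without the dimmest 30% of genes (6 higher), 9 with median centring (9 higher), 9 with a trended and robust prior (6 higher), 8 with array weights (7 higher), 7 with repeated quantile normalization (6 higher), 6 with the mean of all probe sets (5 higher) and 0 with the RPE marker covariate (which is apart between groups), against 5 (5 higher) as reported. It ran from 3 (without wild type replicate 3) to 19 (without wild type replicate 2) with arrays left out.

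Signs turned for small differences. With the RPE marker covariate the values were -0.15 for Slc16a7, -0.29 for Slc2a3, 0.10 for Slc2a4, -0.049 for Slc5a8, -0.36 for Slc5a2, -0.11 for Slc2a6, -0.20 for Eno3, -0.24 for Ldha, 0.14 for Ldhb, 0.33 for Fbp1 and 0.11 for Tbc1d1. With the muscle covariate they were -0.058 for Slc5a2, -0.05 for Slc5a1 and 0.034 for Ldhb. Slc2a1 was -0.0025 with repeated quantile normalization and -0.015 with the mean of all probe sets, where Slc2a3 minus Slc2a1 was 0.011 and 0.024, and Slc2a3 was -0.025 with array weights. With arrays left out the ranges were -0.043 to 0.035 for Slc16a3, -0.069 to 0.11 for Slc2a1, -0.090 to 0.071 for Slc2a3, -0.10 to 0.14 for Slc5a2, -0.037 to 0.077 for Slc5a1, -0.15 to 0.074 for Slc5a12, -0.071 to 0.0016 for Nptn and -0.12 to 0.046 for Ldhb. They were -0.08 to 0.10 for Slc16a8 minus Slc16a1, -0.13 to 0.14 for Slc2a3 minus Slc2a1 and -0.13 to 0.006 for Slc2a4 minus Slc2a1.

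Replicate numbers were shared by the groups. Deviations of same-numbered arrays had correlations of -0.06, -0.05 and 0.13, within those of arrays of unlike number (-0.08 to 0.13). These values cannot show whether same-numbered arrays shared a batch. With the replicate block 6 genes passed against 5, and the differences were -0.63 for Slc16a1 and -0.61 for Slc16a8 (limma, Benjamini-Hochberg adjusted p = 0.18 and 0.21). The block narrowed the SE of Emb, at 0.28 ± 0.12 (limma, unadjusted p = 0.041, Benjamini-Hochberg adjusted p = 0.70). Alternatives for genes outside the 9 were chosen after seeing the data. The number of arrays, and background for the dimmer genes, limit what differences can be detected.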
